A study of Homo sapiens with 6 samples.

Results

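The genes described here encode enzymes that form and rearrange disulfide bonds in the secretory pathway, and proteins related to them. They are the protein disulfide isomerase genes P4HB, PDIA3, PDIA4, PDIA5, PDIA6 and TXNDC5, the related genes ERP29 and ERP44, and the sulfhydryl oxidase genes ERO1A and QSOX1. They were picked by gene symbol, by a rule that sets no threshold on any value, though with earlier results of these data known, and all 10 were listed among the 17318 genes of each library. The series measured mRNA in 6 libraries of SNU216, an established human gastric cancer cell line. After 48 h of transfection, cells given siRNA to OXTR, the gene of the oxytocin receptor (siOXTR, 3 libraries), were compared with cells given control siRNA (siControl, 3 libraries). Per its title, the study asks how this receptor and the transcriptional co-activator YAP act together in gastric cancer. Every library came from this single line grown in RPMI1640 with 10% fetal bovine serum, with no further agent named. The sources used here do not say whether siOXTR was a single siRNA or a pool. Nor do they say whether libraries with the same treatment were separate cultures, and the p-values therefore reflect a spread among libraries that may be technical alone.

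The deposited FPKM count fragments relative to transcript length and to the mapped fragments of a library, which sets genes on a common scale per length. A gene was tested if it averaged at least 1 FPKM over the 6 libraries, and 11550 genes, among them all 10 described here, passed that filter. Tests were made with limma on log2(FPKM + 1), as siOXTR minus siControl, and a gene was called if its p-value, adjusted over all tested genes by the Benjamini-Hochberg method, was under 0.05. Sequencing depth is unknown. OXTR itself was at 4.76, 4.65 and 5.34 FPKM in siOXTR and at 39.37, 38.87 and 39.02 FPKM in siControl, so its level followed the labels. All 5 epithelial markers were present, at 19.8 FPKM or more in each library, while the 5 fibroblast, 4 blood and 3 endothelial markers in the files averaged under 1 FPKM each. Some epithelial markers differed between groups: CDH1 (E-cadherin) was 3.80-fold lower and EPCAM 2.00-fold lower in siOXTR (adjusted p = 1.52e-10 and 5.53e-08, limma). The keratin gene KRT19 was called higher in siOXTR (log2 fold change 0.27, adjusted p = 0.011, limma) but not after scaling by the trimmed mean of M values (TMM), which evens out the typical gene (0.14), and KRT8 and KRT18 were not called (0.14 and 0.15). Summed over the list, epithelial markers were between 7707 and 7867 FPKM in siOXTR and between 6570 and 7622 FPKM in siControl. Summed fibroblast markers reached between 0.610 and 0.810 FPKM in siOXTR and between 1.62 and 2.02 FPKM in siControl, with no single value above 1.33 FPKM. The part of these marker differences in the results was not tested. No batch was labelled.

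In the endoplasmic reticulum (ER), newly made secreted and membrane proteins acquire disulfide bonds from protein disulfide isomerases, which carry thioredoxin-like domains with a reactive pair of cysteines. The isomerases are themselves re-oxidized, chiefly by ERO1 flavoenzymes, which pass electrons to oxygen and give off hydrogen peroxide. QSOX1 joins a thioredoxin-like domain to an oxidase domain in a single protein, and works mostly in the Golgi apparatus and outside the cell. Cells that secrete much protein are known to make large amounts of these enzymes.

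All 10 genes were lower in siOXTR, and the groups of libraries overlapped for none of them. The 10 calls stood against a background in which 17.6% of all tested genes were called lower and 42.2% were called higher, and in which all siOXTR libraries lay below all siControl libraries for 19.2% of tested genes. Their median log2 fold change was -0.89, between -1.52 for QSOX1 and -0.24 for ERP29, beside a median of 0.13 over all tested genes. Log2 fold changes of -1 or lower that were also called were found in 4 of the 10 (QSOX1, ERO1A, PDIA4 and PDIA3) and in 2.34% of all tested genes. Together the 10 genes summed to 879.7, 900.3 and 905.4 FPKM in siOXTR and to 1713, 1782 and 1753 FPKM in siControl, a 1.95-fold lower mean in siOXTR. As a share of all listed FPKM they made up 0.197% ± 0.00118 in siOXTR and 0.409% ± 0.0047 in siControl (SD, n = 3 each). In such bulk samples, fewer cells of a kind and less RNA per cell cannot be told apart.

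**Figure D1:**
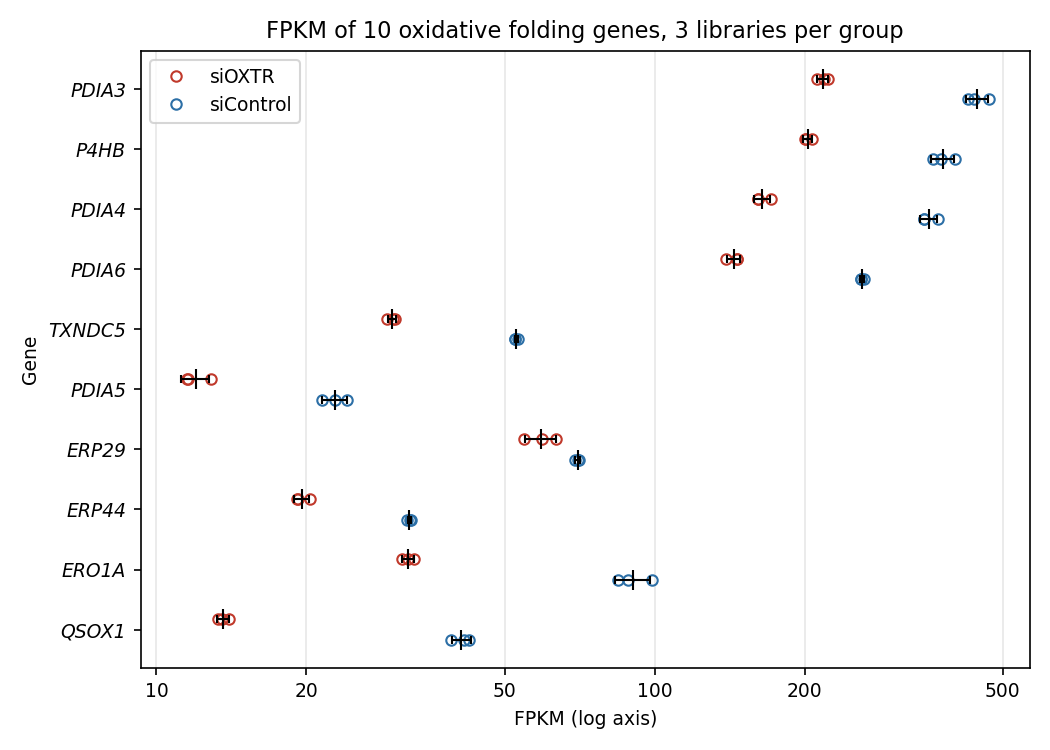
FPKM (log axis) of each of the 10 genes in the 3 siOXTR and 3 siControl libraries, with circles for libraries and black bars for the mean and SD. The siOXTR circles lie left of the siControl circles in every row, with the narrowest gap at ERP29 (63.27 FPKM in the highest siOXTR library, 69.23 FPKM in the lowest siControl library).

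The oxidase genes had the lowest log2 fold changes of the group. ERO1A, the oxidase that recharges protein disulfide isomerases and is known to be induced by hypoxia, was at 32.03, 32.84 and 31.10 FPKM in siOXTR and at 88.26, 84.53 and 98.65 FPKM in siControl. The siOXTR libraries were tightly grouped, and the siControl libraries spread more widely, with replicate 3 highest. The mean was 31.99 ± 0.871 FPKM in siOXTR and 90.48 ± 7.32 FPKM in siControl, 2.83-fold lower in siOXTR (-1.47 on the log2 scale, SE 0.0617, adjusted p = 2.26e-09, limma). QSOX1 was at 14.01, 13.51 and 13.26 FPKM in siOXTR and at 42.48, 41.40 and 38.99 FPKM in siControl. Its lowest siControl library was thus well above its highest siOXTR library, and the mean was 3.01-fold lower in siOXTR (-1.52 on the log2 scale, SE 0.0555, adjusted p = 7.71e-10, limma). Counted from the lowest log2 fold change of all 11550 tested genes, QSOX1 stood at position 49 and ERO1A at position 61. ERO1A lies on chromosome 14 from 52639916 to 52695900 and QSOX1 on chromosome 1 from 180154834 to 180204030 (GRCh38, GENCODE release 29). Their promoters are shown because these genes changed most, as the 250 bases before a RefSeq start site (GRCh38.p14), with capitals on every match to ACGTG or GCGTG on either strand, the core letters bound by hypoxia-inducible factors. Both windows overlap an annotated exon of their own gene from another start.
ERO1A (chr14:52695559-52695808, minus strand): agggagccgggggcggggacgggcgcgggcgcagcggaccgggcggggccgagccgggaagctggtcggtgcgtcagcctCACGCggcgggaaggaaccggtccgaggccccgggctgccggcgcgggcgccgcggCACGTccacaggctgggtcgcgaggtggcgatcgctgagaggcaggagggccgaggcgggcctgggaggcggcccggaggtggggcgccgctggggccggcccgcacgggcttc
QSOX1 (chr1:180154619-180154868, plus strand): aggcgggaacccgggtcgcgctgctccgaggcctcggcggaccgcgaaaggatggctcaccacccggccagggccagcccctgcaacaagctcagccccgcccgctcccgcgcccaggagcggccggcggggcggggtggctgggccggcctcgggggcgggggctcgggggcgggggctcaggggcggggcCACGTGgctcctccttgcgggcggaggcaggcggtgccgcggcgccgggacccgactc
The ERO1A window held 1 ACGTG and 1 GCGTG match, and the QSOX1 window 1 stretch, CACGTG, which reads as ACGTG on both strands.

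The 4 abundant isomerase genes all fell, with log2 fold changes between -1.11 and -0.85. PDIA3, whose product folds glycoproteins together with calnexin and calreticulin, was at 211.74, 222.55 and 218.68 FPKM in siOXTR and at 438.08, 469.93 and 426.46 FPKM in siControl. P4HB, the classical protein disulfide isomerase and a subunit of collagen prolyl 4-hydroxylase, was at 207.24, 201.21 and 200.05 FPKM in siOXTR and at 361.84, 400.65 and 375.10 FPKM in siControl. For both genes each group spanned a narrow range and the gap between groups was several times wider. PDIA4, an isomerase with additional thioredoxin-like domains, was at 160.95, 160.94 and 171.62 FPKM in siOXTR and at 347.01, 347.65 and 371.15 FPKM in siControl. PDIA6, an isomerase that works with the chaperone HSPA5, was at 139.09, 146.64 and 146.55 FPKM in siOXTR and at 259.08, 259.76 and 263.34 FPKM in siControl. The siControl libraries of PDIA6 were the more uniform, and the siOXTR libraries again lay far below them. The log2 fold changes were -1.11 for PDIA4 (SE 0.0545, adjusted p = 8.38e-09, limma), -1.03 for PDIA3 (SE 0.0557, adjusted p = 1.86e-08, limma), -0.90 for P4HB (SE 0.0552, adjusted p = 5.72e-08, limma) and -0.85 for PDIA6 (SE 0.0501, adjusted p = 3.84e-08, limma). These 4 genes made up 83.2% of the drop in the summed FPKM of the 10, led by PDIA3, with a difference of -227 FPKM between group means. They also made up most of that sum in siControl, with 25.4% for PDIA3, 21.7% for P4HB, 20.3% for PDIA4 and 14.9% for PDIA6. Their part in the drop thus mirrors their abundance.

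TXNDC5 and PDIA5 are isomerase genes of lower abundance. TXNDC5, which encodes an isomerase with several thioredoxin-like domains, was at 29.07, 29.87 and 30.12 FPKM in siOXTR and at 52.48, 52.54 and 53.19 FPKM in siControl. PDIA5 was at 11.56, 12.89 and 11.51 FPKM in siOXTR and at 21.47, 22.79 and 24.11 FPKM in siControl. Neither gene's groups overlapped, and both genes were called lower, TXNDC5 at -0.81 on the log2 scale (SE 0.049, adjusted p = 5.05e-08, limma) and PDIA5 at -0.87 (SE 0.0649, adjusted p = 3.23e-07, limma). PDIA6 lies on chromosome 2 (10783391 to 10837977) and TXNDC5 on chromosome 6 (7881517 to 7910814). Their promoters are shown because, among the windows searched, they alone held an exact match to a searched element of the unfolded protein response, marked in capitals. Inexact matches were not searched, and PDIA3 had no window. PDIA6 held the ER stress response element, in which CCAAT is followed by 9 bases of any kind and then by CCACG. TXNDC5 held TGACGTGG, the core of the element bound by XBP1 and ATF6. Each is 1 of 2 start sites listed for its gene. The PDIA6 window overlaps an annotated PDIA6 exon, and the TXNDC5 window lies in an intron of that gene.
PDIA6 (chr2:10812786-10813035, minus strand): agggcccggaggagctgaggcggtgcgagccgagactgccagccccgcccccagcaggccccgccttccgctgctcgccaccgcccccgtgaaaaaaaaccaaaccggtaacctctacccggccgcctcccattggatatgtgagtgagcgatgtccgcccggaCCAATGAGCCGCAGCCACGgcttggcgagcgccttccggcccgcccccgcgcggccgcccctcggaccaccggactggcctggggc
TXNDC5 (chr6:7910078-7910327, minus strand): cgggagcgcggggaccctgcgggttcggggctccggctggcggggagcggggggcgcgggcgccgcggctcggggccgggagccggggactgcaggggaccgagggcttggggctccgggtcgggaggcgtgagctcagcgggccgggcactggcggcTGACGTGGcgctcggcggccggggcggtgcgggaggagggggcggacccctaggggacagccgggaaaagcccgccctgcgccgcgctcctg

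ERP44 and ERP29 had the smallest changes. ERP44, whose product binds ERO1A and other clients through a thiol and retrieves them from the early secretory pathway, was at 19.17, 20.32 and 19.21 FPKM in siOXTR and at 32.26, 31.89 and 32.46 FPKM in siControl (log2 fold change -0.69, SE 0.0522, adjusted p = 3.79e-07, limma). ERP29, a thioredoxin-fold protein that lacks the reactive cysteine pair and acts as an escort and chaperone for secreted proteins, was at 54.79, 59.54 and 63.27 FPKM in siOXTR and at 70.29, 70.56 and 69.23 FPKM in siControl. The siControl libraries were nearly equal, whereas the siOXTR libraries spread up towards them without reaching them. The mean was 59.2 ± 4.25 FPKM in siOXTR and 70.03 ± 0.703 FPKM in siControl, and the log2 fold change of -0.24 had a 95% interval of -0.37 to -0.11 (SE 0.0582, adjusted p = 0.0038, limma). That interval did not overlap the interval of any other of the 10 genes, of which the nearest was ERP44's, from -0.81 to -0.58. ERP29 lies on chromosome 12 from 112013316 to 112023451, and its promoter is shown because the gene changed least, with ACGTG and GCGTG matches in capitals as for the oxidase genes. The window overlaps annotated exons of ERP29 and, on the other strand, of TMEM116.
ERP29 (chr12:112013176-112013425, plus strand): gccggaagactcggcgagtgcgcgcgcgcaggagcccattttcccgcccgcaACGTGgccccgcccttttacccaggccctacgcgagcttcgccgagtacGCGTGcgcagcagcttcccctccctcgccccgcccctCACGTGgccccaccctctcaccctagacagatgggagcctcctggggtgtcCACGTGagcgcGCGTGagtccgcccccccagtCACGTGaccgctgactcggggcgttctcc
With 9 matches on both strands, in 6 marked stretches, this window held more of them than that of any other of the 9 genes with a listed promoter. The next, PDIA5, held 3. Both windows hold CACGTG, and each such stretch was counted on each strand.

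**Figure D2:**
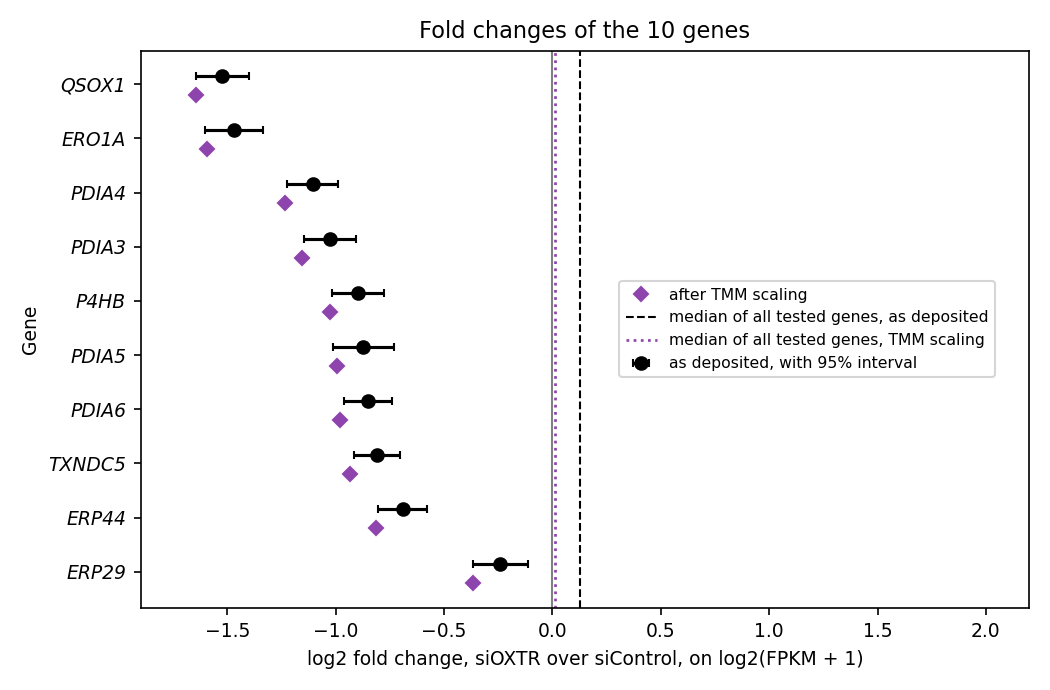
Log2 fold changes (siOXTR over siControl, on log2(FPKM + 1)) of the 10 genes, with black points and bars for deposited values and their 95% intervals and diamonds for values after TMM scaling. All points lie left of 0 and of the medians of all tested genes (0.13 as deposited, 0.013 after TMM scaling), from QSOX1 at -1.52 to ERP29 at -0.24.

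FPKM are relative to a library total, and scaling can move small differences. TMM scaling moved the median of log2 fold changes over all tested genes by -0.12. After it all 10 genes were again called lower, with log2 fold changes from -1.65 (QSOX1) to -0.37 (ERP29), against 24.5% of all tested genes called lower and 19.3% called higher.

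Ratios between genes within a library need no scaling, and they described how evenly the other genes moved with P4HB. All 9 ratios share P4HB, so they are not independent, and its spread enters each of them. In siControl the SD of P4HB was 5.20% of its mean. Relative to P4HB, PDIA5 stood at 0.0591 ± 0.00436 in siOXTR and 0.0602 ± 0.00377 in siControl, and PDIA6 at 0.711 ± 0.0344 in siOXTR and 0.689 ± 0.0357 in siControl (SD over 3 libraries). TXNDC5 stood at 0.146 ± 0.00544 in siOXTR and 0.139 ± 0.00727 in siControl. For these 3 genes the libraries of both groups overlapped, and exact permutation p-values were 0.7, 0.5 and 0.3. The ratio of QSOX1 to P4HB was 0.0676, 0.0671 and 0.0663 in siOXTR and 0.117, 0.103 and 0.104 in siControl. That of ERO1A was 0.155, 0.163 and 0.155 in siOXTR and 0.244, 0.211 and 0.263 in siControl. Both oxidase genes were thus lower relative to P4HB in each siOXTR library than in any siControl library (log2 differences -0.69 and -0.60). The ratio of ERP29 to P4HB was 0.264, 0.296 and 0.316 in siOXTR and 0.194, 0.176 and 0.185 in siControl, a log2 difference of 0.66. PDIA4 and PDIA3 were lower relative to P4HB in every siOXTR library (log2 differences -0.21 and -0.13), and ERP44 was higher in each (0.18). An exact two-sided permutation test of 3 against 3 libraries can give no p below 0.1, and the 6 ratios without overlap each gave p = 0.1 (adjusted p = 0.15 over the 9 ratios), so none passed a threshold of 0.05. P4HB itself had a log2 fold change of -0.90, beside a median of 0.13 over all tested genes. A gene at that median would thus stand higher relative to P4HB in siOXTR, as ERP29 and ERP44 did. The share of all tested genes whose ratios to P4HB did not overlap between groups was not computed.

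**Figure D3:**
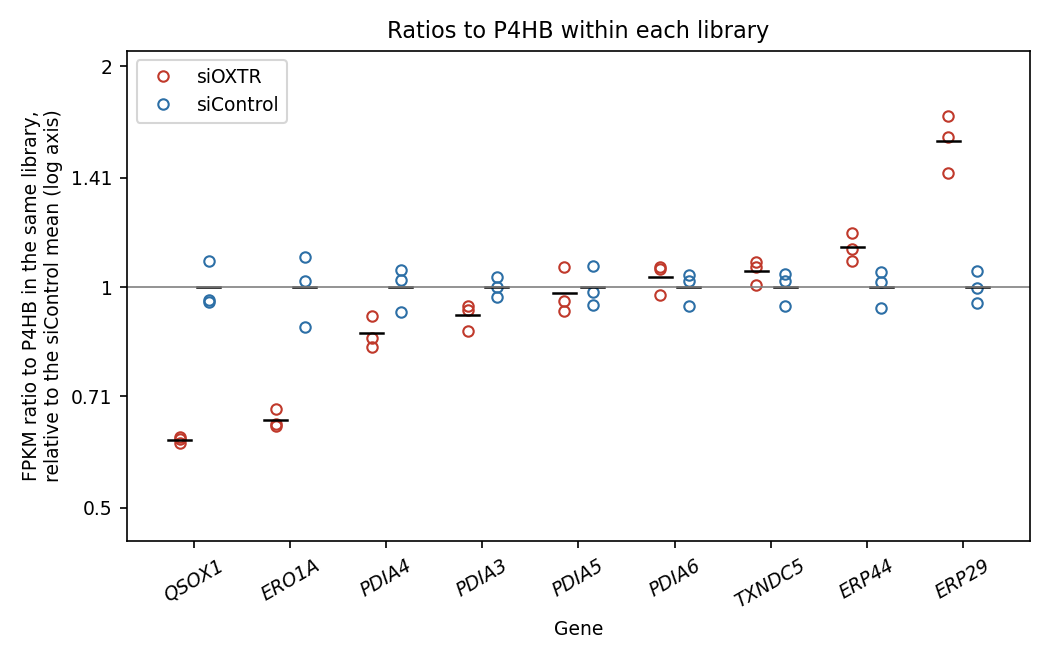
Ratio of each of 9 genes to P4HB in the same library, divided by the siControl mean ratio (log axis), with circles for the 3 siOXTR and 3 siControl libraries and bars for means. QSOX1 and ERO1A lie below 1 and ERP29 above 1 in all 3 siOXTR libraries, while PDIA5, PDIA6 and TXNDC5 overlap between the groups.

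The unequal changes altered the order of levels. In siOXTR the order was PDIA3, P4HB, PDIA4, PDIA6, ERP29, ERO1A, TXNDC5, ERP44, QSOX1 and PDIA5, and no neighbours overlapped between libraries. In siControl ERO1A stood above ERP29 and QSOX1 above ERP44, the reverse of both orders in siOXTR, and P4HB and PDIA4 overlapped (P4HB from 361.84 to 400.65 FPKM, PDIA4 from 347.01 to 371.15 FPKM). Of the summed FPKM of the 10 genes, ERO1A made up 3.57% ± 0.121 in siOXTR and 5.17% ± 0.443 in siControl, and QSOX1 1.52% ± 0.0661 in siOXTR and 2.34% ± 0.129 in siControl (SD, n = 3 each). ERP29 made up 6.61% ± 0.38 in siOXTR and 4.00% ± 0.0854 in siControl.

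Matches to 6 sequence motifs were counted on both strands of the 250 bases before 12 start sites of 9 of the 10 genes; PDIA3 had no entry. The ER stress response element was found for 1 gene (PDIA6) and in 0.074% of 35116 such windows of all genes. TGACGTGG, which contains ACGTG, was found for 1 gene (TXNDC5) and in 0.612% of windows. A second form of the ER stress response element, ATTGG and CCACG with 1 base between them, and TGATGNAAT, a composite of the kind bound by ATF4 with C/EBP factors, were found for none of the 9, and in 0.0513% and 0.888% of all windows. ACGTG occurred in 7 and GCGTG in 6 of the 12 windows, beside 18.5% and 32.2% of all windows. The ACGTG matches were in ERO1A, QSOX1, PDIA4, PDIA5, TXNDC5, ERP44 and ERP29, that is, in genes with the largest and the smallest changes alike.

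Some of these genes share sequence with other loci, and the files do not state whether fragments were counted by strand. PDIA3 has the pseudogenes PDIA3P1 and PDIA3P2 and ERP29 has ERP29P1, none of them listed in the files, so fragments from such copies may be counted with their parent genes. Exons of PDIA3 overlap those of ELL3 by 627 bases and exons of PDIA6 those of ATP6V1C2 by 1033 bases, both on the opposite strand, and exons of PDIA5 overlap those of SEC22A by 490 bases on the same strand. ELL3 ranged from 7.49 to 8.10 FPKM, ATP6V1C2 from 0.580 to 1.08 FPKM and SEC22A from 14.09 to 16.66 FPKM over the 6 libraries. P4HB, ERP29 and ERO1A share 529, 540 and 581 exonic bases with annotated antisense genes that the files do not list. TXNDC5 shares 2658 exonic bases with the read-through gene BLOC1S5-TXNDC5, which is not listed separately.

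Other genes of disulfide formation were lower in siOXTR as well. Among 14 further genes of thioredoxin-fold proteins of the ER, 11 were tested, of which 10 fell and none rose by limma (median log2 fold change -0.44), and the same 10 and 0 passed an unadjusted p under 0.05. Over all tested genes, 17.6% were called lower and 42.2% higher, and 2151 of 11550 were lower and 5281 higher at an unadjusted p under 0.05. TMX1, a membrane-bound isomerase, was at 18.45, 19.20 and 17.89 FPKM in siOXTR and at 32.23, 29.06 and 37.32 FPKM in siControl (log2 fold change -0.79, SE 0.0784, adjusted p = 4.79e-06, limma). DNAJC10, a disulfide reductase that assists ER-associated degradation, TXNDC16 and TXNDC12 had log2 fold changes of -0.59, -0.71 and -0.46. TXNDC16 was low, at 1.66, 1.72 and 1.49 FPKM in siOXTR and 3.34, 3.27 and 3.29 FPKM in siControl. At such levels the added 1 FPKM shrinks the log2 fold change, and the mean FPKM of TXNDC16 was 2.03-fold lower in siOXTR. AGR2, an isomerase of mucus-secreting epithelia, had a log2 fold change of -0.14 as deposited and did not pass the threshold, with overlapping groups, but was called lower after TMM scaling (-0.26, adjusted p = 0.00617, limma).

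Among 9 other genes of ER oxidation and peroxide use, 7 were tested, 5 fell and 1 rose (median -0.37). The shares of all tested genes called were 17.6% lower and 42.2% higher. QSOX2, the paralogue of QSOX1, was at 7.95, 6.81 and 7.35 FPKM in siOXTR and at 16.06, 16.52 and 15.11 FPKM in siControl, 2.16-fold lower in siOXTR (-1.01 on the log2 scale, SE 0.0671, adjusted p = 1.07e-07, limma). ERO1B, the paralogue of ERO1A, averaged under 1 FPKM, with 0.620, 0.570 and 0.560 FPKM in siOXTR and 0.840, 0.750 and 0.930 FPKM in siControl, and was not tested. PRDX4 and GPX8, which use hydrogen peroxide in the ER, had log2 fold changes of -0.46 and -0.47, and VKORC1L1, a vitamin K epoxide reductase that can also pass oxidizing power to isomerases, -0.37. SELENOM, a selenoprotein of the ER, was the gene that rose (0.19), and it was not called after TMM scaling.

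Most genes whose products work with those of the 10 genes were lower too. Of 17 partners and clients, 15 were tested, 13 fell and 1 rose (median -0.96), beside 17.6% and 42.2% of all tested genes. P4HA1, the catalytic partner of P4HB in collagen prolyl 4-hydroxylase, was at 12.25, 13.11 and 13.46 FPKM in siOXTR and at 46.38, 44.32 and 45.76 FPKM in siControl, 3.52-fold lower in siOXTR (adjusted p = 3.5e-10, limma). TAPBP, the tapasin gene, whose product pairs with PDIA3 in peptide loading of MHC class I, was 2.39-fold lower, CANX (calnexin) 2.35-fold lower and HSPA5 2.41-fold lower, and each was called. KDELR1, KDELR2 and KDELR3, which return ER-resident proteins from the Golgi, fell by 0.63, 0.56 and 0.64 on the log2 scale. CRELD2, a thiol-containing ER cofactor induced by ER stress, was the gene that rose, with 47.19, 50.65 and 48.34 FPKM in siOXTR and 32.16, 39.08 and 37.57 FPKM in siControl (log2 fold change 0.42, SE 0.0698), and it remained higher after TMM scaling (0.29).

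Thioredoxin-fold and disulfide reductase genes of the cytosol, nucleus and mitochondria mostly did not share the lower levels. Of 15 tested, 10 rose and none fell by limma (median 0.29), beside 42.2% of all tested genes called higher and 17.6% called lower. At an unadjusted p under 0.05, 11 were higher and 0 lower, beside 5281 and 2151 of all 11550 tested genes. After TMM scaling 8 were called higher and none lower (median 0.16), beside 19.3% and 24.5% of all tested genes. At an unadjusted p under 0.05, 8 were then higher and 1 lower, beside 2802 and 3139 of all 11550 tested genes. TXNRD1, the cytosolic thioredoxin reductase gene, was at 162.59, 155.54 and 160.90 FPKM in siOXTR and at 108.19, 98.89 and 106.29 FPKM in siControl (log2 fold change 0.61, SE 0.0534, adjusted p = 1.52e-06, limma). GLRX2, TXN and GSR, which encode a mitochondrial glutaredoxin, thioredoxin and glutathione reductase, had log2 fold changes of 0.52, 0.42 and 0.42, and all 3 were still called higher after TMM scaling. No test compared this list with the 10 genes of ER oxidative folding.

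**Figure D4:**
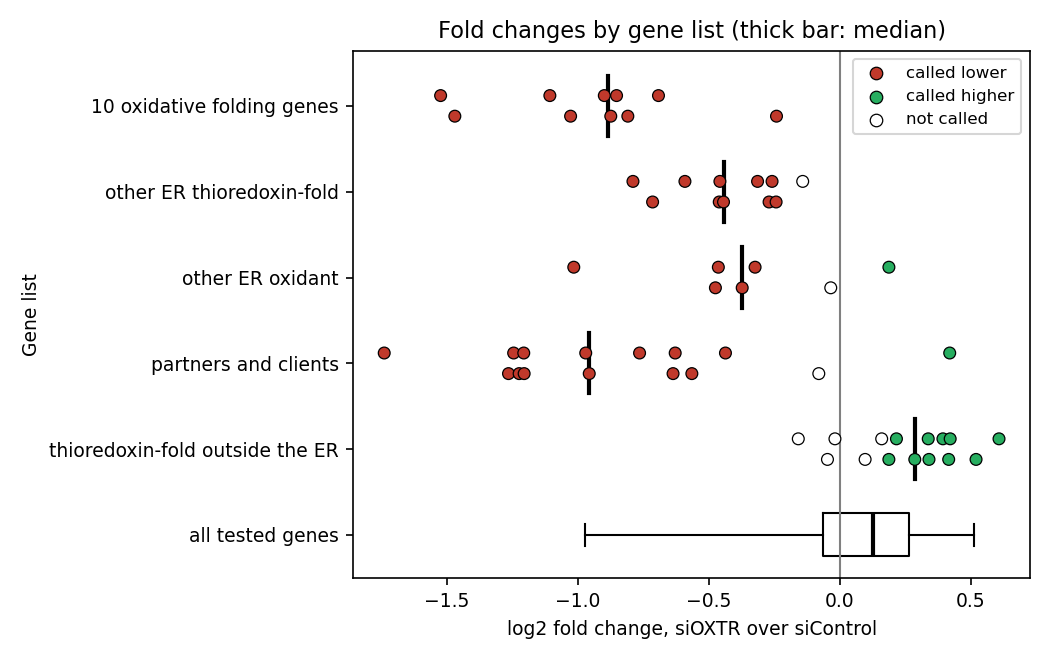
Log2 fold changes (siOXTR over siControl) of tested genes in 5 lists, coloured by call, with thick bars for medians, and a box for all tested genes (quartiles, with whiskers at the 2.5 and 97.5 percentiles). The 3 lists of ER genes below the 10 oxidative folding genes have medians of -0.44, -0.37 and -0.96. The thioredoxin-fold and disulfide reductase genes outside the ER have a median of 0.29.

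The tested genes most like the 10 in pattern were CALR (calreticulin, a lectin chaperone that works with PDIA3), XYLT2 (a xylosyltransferase of proteoglycan synthesis) and CD82 (a tetraspanin). Likeness was the Euclidean distance between centred log2(FPKM + 1) profiles and the mean profile of the 10 genes over 6 libraries, and it was 0.0421 for CALR, 0.0464 for XYLT2 and 0.0528 for CD82. CALR was at 530.15, 551.75 and 561.48 FPKM in siOXTR and at 1052, 1059 and 1078 FPKM in siControl. The log2 fold changes were -0.96 for CALR, -0.93 for XYLT2 and -0.99 for CD82. The mean profile was close to a step, from 0.46 to 0.49 in siControl and from -0.50 to -0.45 in siOXTR. Nearness to it therefore mostly reflected the size of the fold change. Some of the 10 genes themselves had quite different fold changes, such as QSOX1 (-1.52) and ERP29 (-0.24).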

How the data were processed

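The deposited values are FPKM, 1 per gene and library, rounded to 2 decimals by the authors, per the file headers. Per the submitters' processing notes the build was GRCh38.p13, and per the labels' protocols RNA was taken up in Trizol and made into BGISEQ-500 libraries. The sources used here name no aligner, quantifier, annotation or filter. Low values showed no clear steps of whole fragments (coherence of 0.146 to 0.197 of a possible 1), so depth is unknown and no count model was used. Libraries of a group correlated at 0.995 to 0.998 and were each counted once.

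For genes averaging at least 1 FPKM, log2(FPKM + 1) was fitted in limma (version 3.58.1, R 4.3.3, group as the only term, mean trend, robust prior, two-sided), which was tested on simulated data. Of 50 genes simulated at each log2 fold change, 49 were recovered at -1, 42 at -0.5, 15 at -0.25 and 6 at 0.25. Small changes can thus go uncalled, though far fewer genes changed in the simulation than were called in the data. Folds are ratios of mean FPKM. Alternatives were pseudocounts of 0.1 and 5, no filter, a mean of at least 5 FPKM, TMM scaling, quantile normalization, a plain prior, the replicate number as a block, and each library left out. Positions came from GENCODE release 29 and promoters from RefSeq (GRCh38.p14), matched by symbol for 9 of 10 genes.

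The 10 genes and the 4 further lists were chosen with earlier results of these data known. Named were the 10 genes, OXTR, up to 4 called genes per list with the largest change and the 3 nearest profiles. The epithelial markers, AGR2, ERO1B, SELENOM, CRELD2, the KDELR genes and the overlapping genes were named after their values were seen.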

Additional observations from a re-analysis of the deposited data

How the results depend on the processing

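All 10 genes were called lower under each of 14 alternatives. Their log2 fold changes lay between -1.65 and -1.30 for QSOX1, between -1.59 and -1.37 for ERO1A, and between -0.37 and -0.19 for ERP29, whose adjusted p lay between 0.000288 and 0.0214. Of all tested genes, 2036 were called lower as deposited. Over the alternatives this count ran from 1604 (mean of at least 5 FPKM, with fewer genes tested) to 2832 (TMM scaling). The count of all genes called higher depended on scaling, with 4869 as deposited, 3810 after quantile normalization and 2228 after TMM scaling. When single libraries were left out, between 1820 and 2028 of all genes were called lower and between 3980 and 4671 higher. The 1 rise among other ER oxidant genes was absent after TMM scaling and after quantile normalization (0 in both), and ranged from 0 to 1 when single libraries were left out. The count of called falls among thioredoxin-fold and disulfide reductase genes outside the ER ranged from 0 to 1 in the same way, with 1 without siOXTR replicate 2. The cause was not tested. The log2 ratio of PDIA5 to P4HB differed by -0.026 between groups, ranged from -0.085 to 0.023 when single libraries were left out, and reversed to 0.015 without siOXTR replicate 1 and to 0.023 without siControl replicate 3. The labels do not say whether same-numbered libraries were paired. Same-numbered libraries correlated at 0.107, 0.00421 and 0.160 after removing group means. Of the siOXTR libraries, replicates 1 and 2 correlated better with another number and replicate 3 best with its own. With 3 libraries per group these correlations can neither show nor exclude pairing. With the replicate block 2105 genes were called lower and 5100 higher, against 2036 and 4869 without it, and all 10 genes were again called lower. Unknown depth limits the reading of values under 1 FPKM, such as ERO1B.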
